A study of Homo sapiens and Mus musculus with 18 samples.

Results

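Interferon response genes are the genes that cells switch on after interferons bind their receptors. A list of 38 of them was followed through the human libraries of a series on mesothelium made from WA09, a human embryonic stem cell line. The members were given as a list of symbols and each was matched to 1 Ensembl gene ID, so that 38 of the 63677 IDs counted in 7 one-library files and of the 56299 IDs in a table of 6 human libraries are described here. DDX58, the RNA sensor RIG-I, was matched through its synonym RIGI and keeps its older symbol.

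All groups came from WA09 cells first turned into splanchnic mesoderm with WNT3A and BMP4. Mesothelium-like cells (MLC) were made from replated splanchnic mesoderm with the TGF-beta receptor inhibitor SB431542 (20 uM) and retinoic acid (4 uM), over 18 days in all. MesoT FCS were MesoT cells grown to passage 4 in fetal bovine serum (10%) with FGF2 (8 ng/ml). The smooth muscle group was splanchnic mesoderm left in culture, with no dose given. MesoT-derived MLC were MesoT cells replated into the MLC medium, with no MesoT day given for the replating. MesoT is a mesothelium grown with WNT3A (25 ng/ml), BMP4 (50 ng/ml) and retinoic acid (4 uM), and was sampled at day 22 and day 18. Smooth muscle had 1 library and every other group 2. All groups go back to 1 cell line. The labels do not say that replicates were separate cultures, so p-values measure the spread between these libraries, which may be technical.

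Type I interferons are secreted by cells that sense viral nucleic acid. They bind the receptor chains IFNAR1 and IFNAR2, whose kinases JAK1 and TYK2 activate transcription factors, STAT2 among them. STAT2 joins IRF9 in a complex that binds interferon response elements in the promoters of target genes. The products include enzymes that block viral RNA and protein synthesis, membrane proteins that stop virus entry or release, the sensors themselves and the class I antigen presentation machinery. Pluripotent cells are known for a weak interferon response that is gained on differentiation.

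The core of the response element was found before or at the start of most members. It was searched as GAAA, any NN and GAAA in a row, on either strand, in a window of 300 bases, from 250 bases before to 50 bases after each gene start. Of the 31 members with a window in the RefSeq promoter table (GRCh38.p14), 21 (67.7%) held the core, against 4.38% of all 27305 genes with a window. A repeated core was found in 15 members and in 0.311% of all genes. The windows of 5 members are printed 5′ to 3′ on the gene's own strand, with every match in capitals, because results below turn on these genes, IFI44L, IFI6 and IFIT1 for their replicates and BST2 and ISG15 for their groups. A run of T and C in capitals is the core on the opposite strand, and neighbouring matches in ISG15 and BST2 overlap.
IFI44L, chr1:78620198-78620497, plus strand: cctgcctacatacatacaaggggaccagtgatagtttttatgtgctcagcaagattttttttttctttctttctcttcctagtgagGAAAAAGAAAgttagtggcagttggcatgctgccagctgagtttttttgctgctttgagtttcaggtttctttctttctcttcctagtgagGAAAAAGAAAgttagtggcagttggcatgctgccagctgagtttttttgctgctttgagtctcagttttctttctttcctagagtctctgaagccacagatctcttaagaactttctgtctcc
IFI6, chr1:27672143-27672442, minus strand: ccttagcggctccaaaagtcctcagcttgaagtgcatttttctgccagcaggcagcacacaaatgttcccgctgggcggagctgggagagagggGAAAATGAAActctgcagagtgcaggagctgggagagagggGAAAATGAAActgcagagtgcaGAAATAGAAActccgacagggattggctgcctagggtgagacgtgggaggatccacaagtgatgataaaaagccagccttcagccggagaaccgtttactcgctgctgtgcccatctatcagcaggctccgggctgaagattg
IFIT1, chr10:89392373-89392672, plus strand: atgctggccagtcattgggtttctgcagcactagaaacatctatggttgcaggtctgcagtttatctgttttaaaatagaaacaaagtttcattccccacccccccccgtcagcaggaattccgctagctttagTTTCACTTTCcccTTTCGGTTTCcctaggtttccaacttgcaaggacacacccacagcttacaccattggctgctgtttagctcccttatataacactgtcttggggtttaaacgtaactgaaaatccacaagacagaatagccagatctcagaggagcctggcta
ISG15, chr1:1013247-1013546, plus strand: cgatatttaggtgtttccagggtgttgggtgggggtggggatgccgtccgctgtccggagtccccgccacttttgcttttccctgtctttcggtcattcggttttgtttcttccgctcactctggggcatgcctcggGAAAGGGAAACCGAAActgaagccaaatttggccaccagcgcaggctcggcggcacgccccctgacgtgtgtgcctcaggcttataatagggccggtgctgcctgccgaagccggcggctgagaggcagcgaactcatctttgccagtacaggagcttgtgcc
BST2, chr19:17405581-17405880, minus strand: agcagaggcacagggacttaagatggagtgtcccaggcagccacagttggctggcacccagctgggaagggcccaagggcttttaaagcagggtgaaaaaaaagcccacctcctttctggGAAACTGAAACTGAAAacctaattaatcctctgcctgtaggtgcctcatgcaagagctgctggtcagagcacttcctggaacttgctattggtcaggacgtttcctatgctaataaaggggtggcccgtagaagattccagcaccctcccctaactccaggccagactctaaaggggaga
IFI44L carried the same 10-letter core at 2 places in a repeated stretch, and IFI6 carried 3 cores. The 10 members whose windows held no match were OAS1, IFI35, XAF1, SP100, DDX58, STAT2, IRF1, IRF9, HLA-B and HLA-C. OAS2, OASL, MX2, IFIT2, IFITM2, TRIM22 and IRF7 had no window in the table. A match is a string in a window and not a tested binding site.

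Depth ran from 21148477 to 70679258 counts in the one-library files and from 24137663 to 31435480 in the table. The same labelled MesoT day 18 libraries stood in both sets with unequal counts, and the sets were scaled apart. Of 22110 genes compared at day 18, 58.0% differed by at most 0.5 on the log2 scale between the sets in both replicates. So did 27 of 37 members. OAS2, OAS3, MX2, IFI35, IFI44L, ISG20, IRF1, TRIM22, XAF1 and RSAD2 did not, and OASL had too few counts to compare. IFITM1, IFITM2 and IFITM3, and HLA-B and HLA-C, have near-identical copies that counting can split, so their single values are uncertain. The MLC libraries were the deepest, with 6.84% and 7.76% of counts on mitochondrial genes, against 2.48% to 3.42% in the other one-library files.

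The listed interferon ligands other than IFNE were near absent from the libraries, while the receptor gene IFNAR1 was present. The only alpha interferon genes listed were IFNA1 and IFNA2, so the other alpha genes were not looked at. Of 10 interferon genes on a companion list, 9 had at most 11 counts in any library, and IFNE, an interferon of epithelia, was the 1 tested. By edgeR, IFNE was called lower in MLC against MesoT FCS (log2 fold change -1.85) and in MesoT-derived MLC against MesoT (-5.22). It was not called in the other comparisons. IFNB1, the interferon most cells make first, had 0 or 1 count in every library. IFNAR1 had 61.2 and 59.0 CPM (counts per 1000000 counts) in MLC, 43.2 and 49.2 CPM in MesoT FCS, 41.9 CPM in smooth muscle and 76.1 and 35.6 CPM in MesoT day 18. This receptor gene was present in all groups, and its MLC values lay between the 2 MesoT day 18 values. The 10 markers of blood and immune cells, a source of interferon in tissue, were summed in each library. In the one-library files they gave between 1.57 and 7.79 CPM in MLC, MesoT FCS and MesoT day 18, and 30.0 CPM in smooth muscle. In the table they gave between 3.32 CPM, in MesoT-derived MLC replicate 2, and 11.3 CPM, in MesoT day 18 replicate 2.

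In MesoT FCS, MesoT day 18 and MesoT-derived MLC, a larger share of the members than of all genes lay at least 2-fold apart between the replicates of the group, always more often in 1 direction. In MesoT FCS, replicate 2 was at least 2-fold above replicate 1 for 22 of 38 members and at least 2-fold below it for 1. Over all genes tested the shares were 8.41% and 10.8%. IFI44L, a gene of the antiviral set, had 0.134 CPM in replicate 1 and 4.80 CPM in replicate 2 of MesoT FCS. MX1, a GTPase that blocks incoming virus particles, had 1.92 and 17.1 CPM, and IFI35 had 4.95 and 21.1 CPM.

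In MesoT day 18 of the one-library files, replicate 2 was at least 2-fold above replicate 1 for 16 of 38 members and below it for 3, against 13.5% and 10.8% of all genes. IFI6, a mitochondrial and endoplasmic reticulum protein, had 43.6 CPM in replicate 1 and 192 CPM in replicate 2. IFIT1, which binds viral RNA that lacks the host cap mark, had 13.7 and 41.2 CPM, and IFI44L had 12.0 and 45.2 CPM. TRIM22, a ubiquitin ligase, ran the other way, with 69.8 and 10.5 CPM. The same 2 samples in the table gave 11 of 37 members above and 3 below, against 9.60% and 8.41% of all genes.

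In the remaining pairs of the table, more members were at least 2-fold lower than higher in replicate 2. The labels do not link the replicate numbers of different groups, so directions are given within each group and not compared between groups. In MesoT-derived MLC, replicate 2 was at least 2-fold above replicate 1 for 0 of 37 members and below it for 12, against 3.53% and 5.03% of all genes. IFI6 had 283 CPM in replicate 1 and 62.7 CPM in replicate 2, and IFI44L had 11.4 and 2.29 CPM. In MesoT day 22 the counts were 0 above and 5 below, against 6.77% and 4.02%. MLC of the one-library files had 0 members at least 2-fold apart, against 5.41% of all genes, and a median absolute log2 difference of 0.21 over the members and 0.19 over all genes.

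The role groups were made after the values were seen, so the counts by role only describe them. In MesoT FCS, 14 of the 20 antiviral effectors, 4 of the 5 sensors and PARPs, 2 of the 4 transcription factors and 2 of the 6 restriction genes were at least 2-fold higher in replicate 2, while B2M, HLA-B and HLA-C differed by at most 0.90 on the log2 scale. In MesoT day 18 of the one-library files, 13 of the 20 effectors were at least 2-fold higher in replicate 2, and B2M, HLA-B and HLA-C changed there by -0.48 to -0.88 on the log2 scale. The 5 smooth muscle markers summed to 5864 and 1465 CPM in replicates 1 and 2 of MesoT FCS and to 1582 and 246 CPM in those of MesoT day 18. They summed to 1424 and 229 CPM in replicates 1 and 2 of MesoT day 22. Of 37 members there, 0 were at least 2-fold higher and 5 at least 2-fold lower in replicate 2. Endothelium markers summed to 48.7 and 10.5 CPM in MesoT FCS and to 276 and 107 CPM in MesoT day 18. The part of other cell types in these differences was not tested. In bulk RNA, fewer cells of a type and less RNA per cell cannot be told apart.

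**Figure D1:**
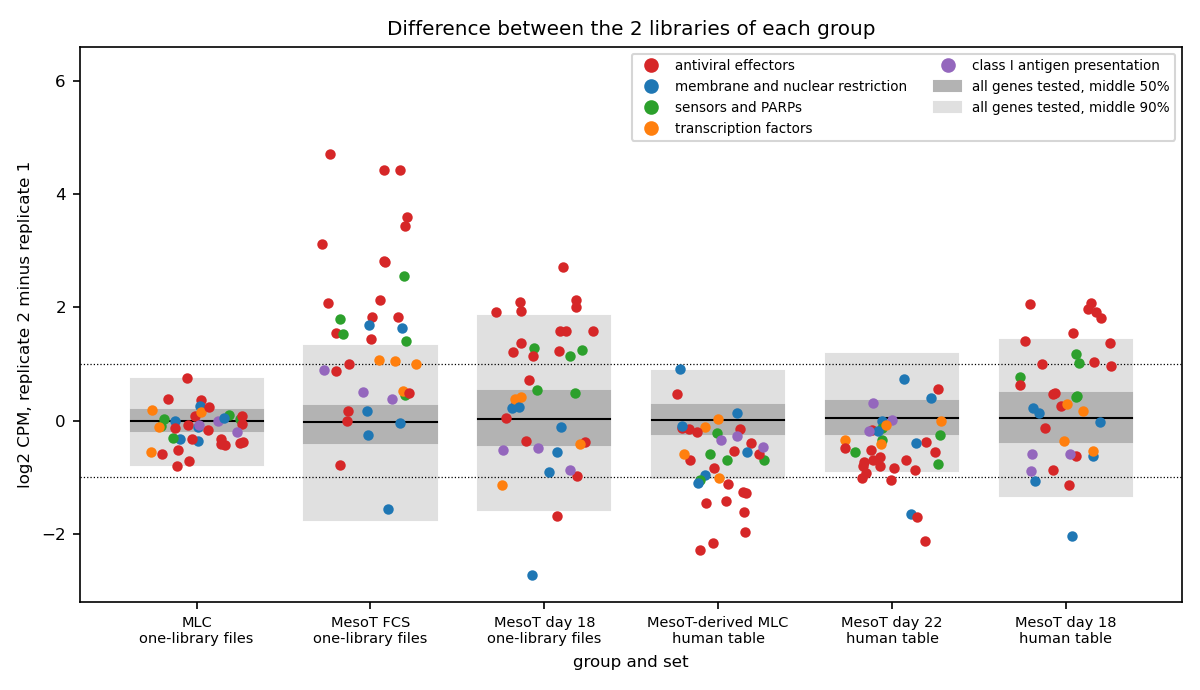
Difference in log2 CPM between the 2 libraries of each group (y axis, replicate 2 minus replicate 1) for each member tested (points, coloured by role), with the middle 50% and 90% of all genes tested as grey bands, their median as a line, and 2-fold differences as dotted lines. The members lie mostly above the grey median in MesoT FCS (22 of 38 at least 2-fold up) and mostly below it in MesoT-derived MLC (12 of 37 at least 2-fold down).

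The replicate differences are also given by the promoter core. This split overlaps with the roles and is not independent of them, since HLA-B, HLA-C, STAT2, IRF1 and IRF9 had a window and no core. In MesoT day 18 of the one-library files the median log2 difference, replicate 2 minus replicate 1, was 1.14 over the 21 members with a core, such as IFI44L, IFI6 and IFIT1 above, -0.37 over the 10 with a window and no core and 0.37 over the 7 without a window. At least 2-fold higher in replicate 2 were 12 of these 21 and 2 of these 10. The same samples in the table gave medians of 0.78 with a core, -0.20 with no core and -0.35 without a window. In MesoT-derived MLC the medians were -0.95, -0.25 and -0.42 in that order. There, 10 of 21 with a core and 1 of 10 with no core were at least 2-fold lower in replicate 2. In MesoT FCS the medians were 1.55, 0.98 and 1.00, with 14 of 21 and 5 of 10 at least 2-fold higher. In the other pairs the medians with a core were not always the farthest from 0: with a core, with no core and without a window they were -0.65, -0.26 and -0.77 in MesoT day 22 and -0.014, -0.28 and -0.11 in MLC. The genes share their libraries, so no test was made of these splits.

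MesoT FCS against MesoT day 18 sets cells passaged in serum beside MesoT. Serum, FGF2, passage and the WNT3A, BMP4 and retinoic acid listed for MesoT alone of these 2 groups cannot be told apart. Of the 38 members, 5 rose and 2 fell (edgeR quasi-likelihood test, Benjamini-Hochberg adjusted p under 0.05). Over all 23049 genes tested, 27.3% were called, 13.0% higher and 14.4% lower. The order of these shares depended on the setting: 7 of 38 members and 2783 of 22930 genes were called without MesoT FCS replicate 1, 8 of 37 and 2985 of 22961 without MesoT FCS replicate 2, and 14 of 38 and 6704 of 38368 with no filter on low counts. Of the 5 that rose, B2M and HLA-C belong to class I antigen presentation, SP100 and IFITM2 to the restriction factors and IFI35 to the effectors. Of the 20 effectors, 0 were called lower. Without overlap, 3 effectors lay above and 7 below both MesoT day 18 libraries, against 7033 and 8701 of all 23049 genes. By DESeq2, and also with no filter, 7 members rose and 7 fell. The median log2 fold change was -0.42 over the members and -0.16 over all genes.

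SP100, a scaffold of nuclear bodies that restrict DNA viruses, had 60.9 and 68.7 CPM in MesoT FCS, against 14.3 and 13.3 CPM in MesoT day 18. The groups stood far apart, with a log2 fold change of 2.23 ± 0.20 (SE, adjusted p = 0.00369). B2M, the light chain of all class I molecules, had 349 and 454 CPM in MesoT FCS, against 210 and 151 CPM in MesoT day 18 (1.16 ± 0.24, adjusted p = 0.0198). HLA-C, a class I heavy chain, had 219 and 310 CPM in MesoT FCS, against 123 and 86.2 CPM in MesoT day 18 (1.34 ± 0.26, adjusted p = 0.0181). For both genes the lower MesoT FCS library was above the higher MesoT day 18 library. HLA-B did not pass the test, with 27.002 and 50.3 CPM in MesoT FCS, against 26.96 and 14.7 CPM in MesoT day 18.

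IFITM2, which hinders virus fusion in endosomes, had 193 and 188 CPM in MesoT FCS, against 83.8 and 44.5 CPM in MesoT day 18 (1.57 ± 0.31, adjusted p = 0.0177). IFI35, an interferon-induced leucine zipper protein, had 4.95 and 21.1 CPM in MesoT FCS, against 2.19 and 1.67 CPM in MesoT day 18 (2.75 ± 0.70, adjusted p = 0.0358), and was not counted alike in the 2 sets. Its libraries did not overlap, though the MesoT FCS pair was itself more than 2-fold apart.

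BST2 (tetherin), which holds budding virus at the cell surface, fell most of the called members. It had 2.90 and 9.10 CPM in MesoT FCS, against 97.9 and 114 CPM in MesoT day 18 (-4.15 ± 0.54, adjusted p = 0.00698). IRF9, the DNA-binding partner of STAT2, had 0.982 and 2.12 CPM in MesoT FCS, against 5.54 and 7.45 CPM in MesoT day 18 (-2.07 ± 0.43, adjusted p = 0.0203). STAT2 itself had 57.5 and 82.5 CPM in MesoT FCS, against 106 and 79.1 CPM in MesoT day 18, and did not pass. ISG15, a ubiquitin-like modifier, had 62.2 and 87.0 CPM in MesoT FCS, against 19.4 and 50.0 CPM in MesoT day 18, with no call (1.11 ± 0.44, adjusted p = 0.112).

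Several calls ended when a library was left out. Without MesoT FCS replicate 2, 1 member rose and 7 fell. The adjusted p there was 0.0779 for B2M, 0.0692 for HLA-C, 0.0595 for IFITM2 and 0.0995 for IFI35. IFI35 had a log2 fold change of 1.36 there, while that of IFITM2 was 1.59. Without MesoT FCS replicate 1 the adjusted p was 0.0650 for IFITM2 (1.55) and 0.0596 for IRF9, and IFI35 also lost its call without either MesoT day 18 library (0.0764 without replicate 1 and 0.120 without replicate 2, with log2 fold changes of 2.91 and 2.56). In a fit of the compared groups only, B2M (0.0575), IRF9 (0.0590) and IFI35 (0.0729) did not pass, and IFI35 did not by limma voom (0.0757). Without MesoT day 18 replicate 1, 12 members were called instead of 7, IFIT1 among them (-1.90, adjusted p = 0.0194). ISG15 was called without MesoT day 18 replicate 2 (1.94, adjusted p = 0.0137), and OAS1 without MesoT FCS replicate 2, where its lone library held 0 counts. BST2 and SP100 were called under all 12 alternatives.

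Of 14 companion genes of antigen presentation, 7 rose and 0 fell in MesoT FCS, against 13.0% and 14.4% of all genes. Without overlap, 12 lay above and 1 below both MesoT day 18 libraries, against 7033 and 8701 of all 23049 genes. The median log2 fold change was 1.17, against -0.16 over all genes. NLRC5, the transcriptional activator of class I genes, had 18.3 and 17.4 CPM in MesoT FCS, against 0.258 and 0.205 CPM in MesoT day 18 (6.25 ± 0.35, adjusted p = 0.00166). TAP1, a peptide transporter subunit, had 37.6 and 47.1 CPM in MesoT FCS, against 9.53 and 4.82 CPM in MesoT day 18. The count of 7 was 2 without MesoT FCS replicate 2, 5 without MesoT FCS replicate 1 and 5 to 9 under the other settings tried.

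Other parts of the pathway gave mixed counts. Of 12 nucleic acid sensing genes tested, 1 rose and 1 fell, the riser being TMEM173 (STING, the adaptor of DNA sensing) with 73.1 and 39.4 CPM in MesoT FCS, against 5.86 and 7.10 CPM in MesoT day 18 (3.12 ± 0.38, adjusted p = 0.00615). Of 9 receptors and kinases, TYK2 rose and IFNLR1, a receptor chain for lambda interferons, fell (-3.25 ± 0.29, adjusted p = 0.00349). Of 27 further interferon-stimulated genes tested, 5 rose and 3 fell. Over all genes, 13.0% were called higher and 14.4% lower in this comparison.

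**Figure D2:**
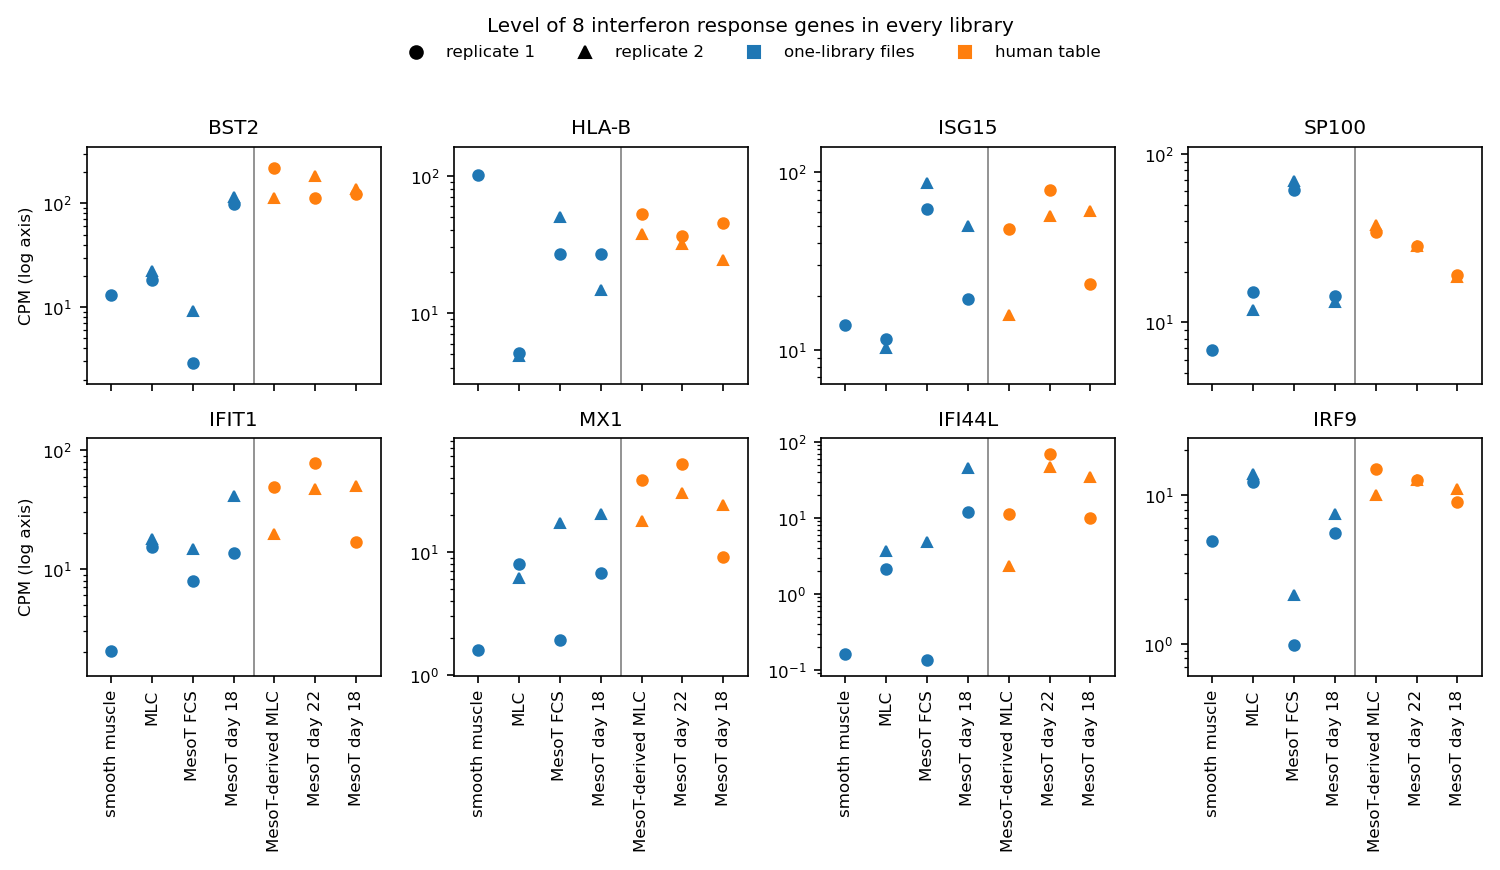
CPM on a log axis of 8 members in every library, by group, with replicate 1 as circles and replicate 2 as triangles, one-library files left of the grey line and the human table right of it. BST2 stands at 2.90 and 9.10 CPM in MesoT FCS and at 97.9 CPM or more in both sets at MesoT day 18, and SP100 at 60.9 and 68.7 CPM in MesoT FCS.

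MLC against MesoT day 18 sets the epithelial protocol beside MesoT. Of the 38 members, 0 rose and 3 fell, against 7.83% of all genes higher and 16.8% lower. BST2 had 18.4 and 22.1 CPM in MLC, against 97.9 and 114 CPM in MesoT day 18 (-2.39 ± 0.49, adjusted p = 0.0194). HLA-B had 5.14 and 4.87 CPM in MLC, against 26.96 and 14.7 CPM in MesoT day 18 (-2.06 ± 0.41, adjusted p = 0.0174). ISG15 had 11.5 and 10.2 CPM in MLC, against 19.4 and 50.0 CPM in MesoT day 18 (-1.67 ± 0.45, adjusted p = 0.0436).

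In these 3 genes the MLC libraries lay below both MesoT day 18 libraries. The other class I members had values close to each other: B2M had 162 and 160 CPM in MLC, against 210 and 151 CPM in MesoT day 18, and HLA-C had 102 and 89.6 CPM, against 123 and 86.2 CPM. All 3 calls ended without either MLC library (adjusted p between 0.119 and 0.224), and that of ISG15 without MesoT day 18 replicate 2 (-0.84, adjusted p = 0.0596), by limma voom (0.0519), among genes counted alike (0.0770) and in a fit of the compared groups only (0.0604). The members' median log2 fold change was -0.14, against -0.03 over all genes. Hepatocyte markers summed to 114 and 50.3 CPM in MLC, against 0.676 and 1.98 CPM in MesoT day 18, and smooth muscle markers to 103 and 78.4 CPM in MLC, against 1582 and 246 CPM in MesoT day 18. Their part in these values was not tested.

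Most antiviral effectors of MLC overlapped with MesoT day 18. MX1 had 8.01 and 6.18 CPM in MLC, against 6.73 and 20.3 CPM in MesoT day 18, and IFIT1 had 15.3 and 18.0 CPM, against 13.7 and 41.2 CPM. OAS1, which makes the messenger that activates RNase L, had 2.15 and 1.41 CPM in MLC, against 1.77 and 7.24 CPM in MesoT day 18. IFI44L lay below both MesoT day 18 libraries without passing the test, with 2.13 and 3.63 CPM in MLC, against 12.0 and 45.2 CPM in MesoT day 18. Of the 20 effectors 3 were above and 4 below the MesoT day 18 libraries without overlap, against 34.2% and 33.9% of all genes.

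MLC against MesoT FCS gave the most calls. Of the 38 members, 5 rose and 6 fell, against 22.6% and 26.3% of all genes. The risers were HERC5, RSAD2, IRF9, BST2 and STAT2, and the fallers HLA-B, ISG15, IFI35, SP100, HLA-C and B2M. HERC5, the ligase that attaches ISG15 to proteins, had 21.3 and 17.0 CPM in MLC, against 0.045 and 1.12 CPM in MesoT FCS (5.10 ± 0.99, adjusted p = 0.00868). ISG15 had 11.5 and 10.2 CPM in MLC, against 62.2 and 87.0 CPM in MesoT FCS (-2.78 ± 0.47, adjusted p = 0.00537). The modifier and its ligase thus stood in opposite order between these groups.

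IRF9 and STAT2, partners in the interferon complex, were both higher in MLC. IRF9 had 12.3 and 13.9 CPM in MLC, against 0.982 and 2.12 CPM in MesoT FCS (3.09 ± 0.44, adjusted p = 0.00308). STAT2 had 112 and 124 CPM in MLC, against 57.5 and 82.5 CPM in MesoT FCS (0.75 ± 0.24, adjusted p = 0.0458). BST2 had 18.4 and 22.1 CPM in MLC, against 2.90 and 9.10 CPM in MesoT FCS (1.76 ± 0.49, adjusted p = 0.0290). RSAD2 (viperin), which makes a chain-terminating nucleotide, had 1.78 and 1.00 CPM in MLC, against 0.134 and 0.056 CPM in MesoT FCS, a value that rests on 4 counts there (3.79 ± 1.20, adjusted p = 0.0422).

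Class I genes were lower in MLC together. HLA-B had 5.14 and 4.87 CPM in MLC, against 27.002 and 50.3 CPM in MesoT FCS (-2.95 ± 0.42, adjusted p = 0.00306). HLA-C and B2M changed by -1.46 ± 0.27 (adjusted p = 0.00688) and -1.32 ± 0.24 (adjusted p = 0.00670). SP100 had 15.2 and 11.8 CPM in MLC, against 60.9 and 68.7 CPM in MesoT FCS (-2.26 ± 0.20, adjusted p = 0.000756). IFI35 changed by -2.36 ± 0.68 (adjusted p = 0.0326). Of the 14 companion antigen presentation genes, 0 rose and 12 fell, TAP1 by 3.79 ± 0.47 on the log2 scale, against a background of 26.3% lower. That count was 9 without MesoT FCS replicate 1, 7 without MesoT FCS replicate 2, 7 without MLC replicate 1 and 6 without MLC replicate 2. The mesothelium markers summed to 1033 and 955 CPM in MLC, against 1113 and 681 CPM in MesoT FCS. These sums hide differences by gene. Of the 8 markers, 6 were called higher and 1 lower in MLC, against 22.6% and 26.3% of all genes. Their median log2 fold change was 4.37. Hepatocyte markers summed to 114 and 50.3 CPM in MLC, against 0.089 and 0.223 CPM in MesoT FCS. The part of these cell types in the class I values was not tested.

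Without single libraries, HERC5, IRF9, HLA-B and SP100 kept their calls throughout. The calls of B2M, BST2, IFI35, RSAD2 and STAT2 ended without MLC replicate 1 (adjusted p between 0.0594 and 0.145). These 5 and those of HLA-C and ISG15 ended without MLC replicate 2 (0.0524 to 0.199). RSAD2 (0.125) and STAT2 (0.187) also ended without MesoT FCS replicate 1, and RSAD2 (0.159) and IFI35 (0.138) without MesoT FCS replicate 2.

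**Figure D3:**
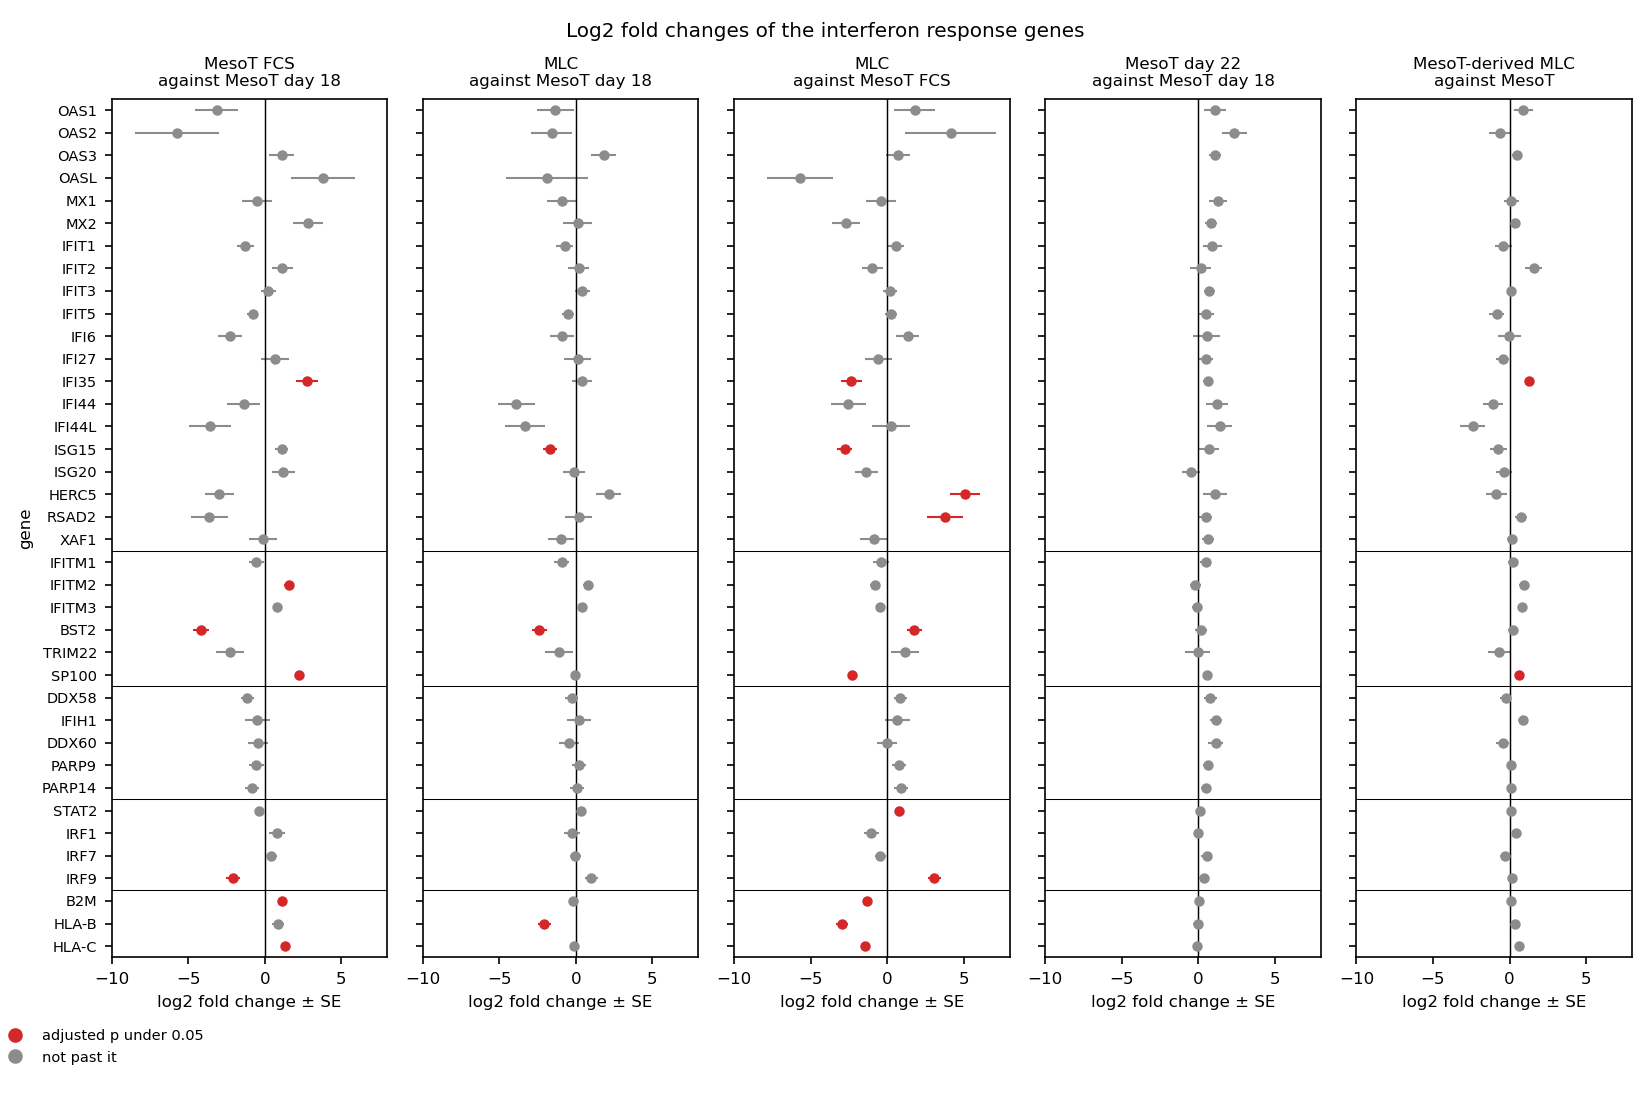
Log2 fold change with its standard error (x axis) of each member (rows, parted by role) in 5 comparisons, with red for an adjusted p under 0.05. In MesoT FCS the class I rows lie right of 0 and BST2 at -4.15, in MLC against MesoT FCS these rows change side, and in day 22 against day 18 no row is red.

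In the smooth muscle library 2 of the 20 antiviral effectors and BST2 fell, and HLA-B was the 1 class I member that rose. Of the 38 members, 1 rose and 3 fell, against 5.08% and 3.58% of all genes, on 1 library whose spread was taken from the groups with 2. IFIT1 had 2.03 CPM in smooth muscle, against 13.7 and 41.2 CPM in MesoT day 18 (-3.75 ± 0.84, adjusted p = 0.0496). IFIT5, of the same family, had 2.97 CPM in smooth muscle, against 14.1 and 31.0 CPM in MesoT day 18 (-2.92 ± 0.55, adjusted p = 0.0345). BST2 had 13.1 CPM in smooth muscle, against 97.9 and 114 CPM in MesoT day 18 (-3.02 ± 0.67, adjusted p = 0.0495).

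HLA-B went the other way, with 101 CPM in smooth muscle, against 26.96 and 14.7 CPM in MesoT day 18 (2.28 ± 0.46, adjusted p = 0.0395). HLA-C had 252 CPM in smooth muscle, against 123 and 86.2 CPM in MesoT day 18, with no call. B2M overlapped, with 173 CPM in smooth muscle, against 210 and 151 CPM in MesoT day 18. Of the 20 effectors 13 lay below both MesoT day 18 libraries and 7 above, against 41.0% and 38.5% of all genes. Of the 14 antigen presentation companions 3 rose and 0 fell, and of 9 interferon transcription factors 4 rose and 0 fell. Over all genes, 5.08% were called higher and 3.58% lower.

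The label of this library needs care. The 6 stratified epithelium markers, keratins among them, summed to 2035 CPM there, against 7.60 and 9.46 CPM in MesoT day 18, and all 6 rose. The 5 smooth muscle markers summed to 952 CPM, against 1582 and 246 CPM in MesoT day 18, with 0 called. The part of these cells in the values above was not tested. Without MesoT day 18 replicate 2 the calls of HLA-B (adjusted p = 0.0629) and BST2 (0.0742) ended, without replicate 1 there were 10 called members, ISG15 among them (-1.88, adjusted p = 0.0207), and a fit of the compared groups alone called 0 genes.

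MesoT day 22 against day 18 gave no call. By edgeR, DESeq2 and limma voom, 0 of 22316 genes and 0 of 37 members passed, and at an unadjusted p under 0.05 edgeR found 4 members and 171 genes. The members nevertheless lay mostly higher at day 22: 17 of 37 had both day 22 libraries above both day 18 libraries and 0 had both below, against 9.00% and 8.71% of all genes. The median log2 fold change was 0.54 over the members and -0.006 over all genes, and 31 of 37 values were above 0. The mean log2 CPM of the members was 3.85 in replicate 1 and 4.23 in replicate 2 at day 18, and 4.91 and 4.41 at day 22. The gap between the days was thus larger between the replicate 1 libraries than between the replicate 2 libraries.

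MX1 had 52.2 and 29.9 CPM at day 22, against 9.05 and 24.0 CPM at day 18. IFI44L had 69.6 and 47.4 CPM at day 22, against 9.82 and 34.8 CPM at day 18, and OAS1 had 12.7 and 9.80 CPM, against 2.14 and 8.32 CPM. In all 3 the libraries did not overlap, and day 18 replicate 1 was far below the other 3 libraries. IFIH1 (MDA5), a sensor of long viral RNA, had 12.9 and 10.1 CPM at day 22, against 3.84 and 6.63 CPM at day 18, and DDX58 had 51.8 and 35.4 CPM, against 16.6 and 33.8 CPM. IRF7, an amplifier of interferon production, had 15.6 and 14.8 CPM at day 22, against 9.86 and 11.1 CPM at day 18.

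Day 18 replicate 1 was the library with the lowest value of 17 members in the table. IFIT1 overlapped, with 78.5 and 47.3 CPM at day 22, against 16.9 and 49.6 CPM at day 18, and so did ISG15, with 79.6 and 57.1 CPM, against 23.4 and 60.7 CPM. Class I genes overlapped too: B2M had 216 and 217 CPM at day 22, against 253 and 168 CPM at day 18, and HLA-B had 36.1 and 31.8 CPM, against 45.2 and 24.5 CPM. Of the 17 members without overlap 9 were effectors, 4 sensors and PARPs, 2 restriction factors and 2 transcription factors, and 0 belonged to class I. At an unadjusted p under 0.05 there were 2 members and 270 genes without day 18 replicate 1, 12 and 2145 without day 18 replicate 2, 0 and 226 without day 22 replicate 1 and 5 and 232 without day 22 replicate 2. Of 28 further interferon-stimulated genes tested, 12 were above without overlap and 0 below, against 9.00% and 8.71% of all genes.

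**Figure D4:**
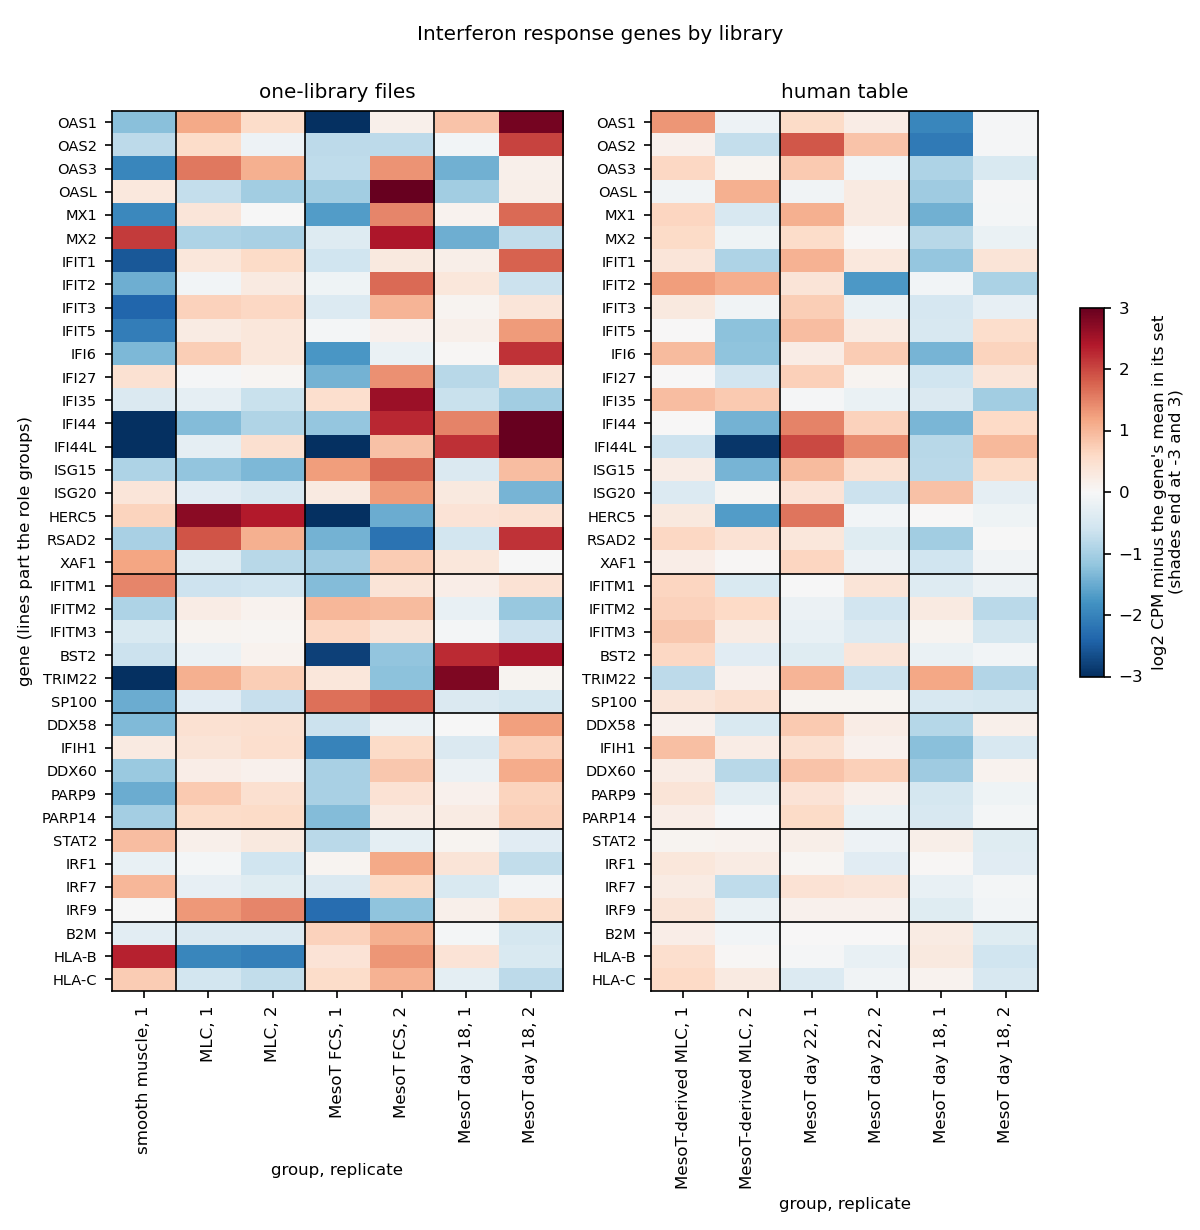
Log2 CPM of each member (rows, parted by role) minus its mean over the libraries of its set, for the one-library files (left) and the human table (right), with columns for each group and replicate. MesoT day 18 replicate 2 holds the highest value of 14 members in the one-library files, and day 22 replicate 1 that of 18 members in the table.

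MesoT-derived MLC against MesoT sets cells replated from MesoT into the MLC medium beside MesoT. The replating and the medium cannot be told apart. Of 37 members tested 2 rose and 0 fell, against 6.63% and 3.32% of all genes. IFI35 had 12.3 and 11.2 CPM in MesoT-derived MLC, against 6.33 and 5.63 CPM at MesoT day 22 and 4.80 and 3.08 CPM at day 18 (1.27 ± 0.25, adjusted p = 0.0365). SP100 had 34.3 and 37.6 CPM in MesoT-derived MLC, against 28.2 and 28.2 CPM at day 22 and 19.1 and 18.7 CPM at day 18 (0.64 ± 0.14, adjusted p = 0.0438). For both genes the 2 MesoT-derived MLC libraries were above all 4 MesoT libraries. Mesothelium markers summed to 1373 and 1592 CPM in MesoT-derived MLC, against 450 to 761 CPM in MesoT, and hepatocyte markers to 79.9 and 196 CPM in MesoT-derived MLC, against 0.766 to 3.12 CPM in MesoT. Their part in the changes was not tested.

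Both calls ended without either MesoT day 22 library (adjusted p between 0.103 and 0.130) or either MesoT-derived MLC library (0.171 to 0.262), and that of SP100 without day 18 replicate 2 (0.0619). Both also ended against one MesoT day alone, with adjusted p of 0.0615 and 0.0550 against day 18 and 0.113 and 0.235 against day 22 for IFI35 and SP100. A further 6 members lay above all MesoT libraries without a call, which makes 8 of 37, against 23.0% of all genes. Of these, IFITM2 had 121 and 114 CPM in MesoT-derived MLC, against 65.6 and 49.9 CPM at day 22 and 89.6 and 42.8 CPM at day 18.

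IFITM3 had 608 and 414 CPM in MesoT-derived MLC, against 299 and 263 CPM at day 22 and 369 and 241 CPM at day 18. HLA-C had 255 and 200.0 CPM in MesoT-derived MLC, against 126 and 157 CPM at day 22 and 181 and 120 CPM at day 18. IFITM1, of the same family as IFITM3, overlapped, with 81.0 and 37.7 CPM in MesoT-derived MLC, against 51.7 and 68.1 CPM at day 22 and 39.5 and 46.3 CPM at day 18. IRF1, a factor that drives class I genes, had 32.0 and 29.7 CPM in MesoT-derived MLC, against 26.3 and 19.8 CPM at day 22 and 25.8 and 20.0 CPM at day 18.

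BST2 and HLA-B, which fell in MLC of the one-library files, overlapped with the MesoT libraries here. BST2 had 219 and 113 CPM in MesoT-derived MLC, against 111 and 185 CPM at day 22 and 124 and 136 CPM at day 18. HLA-B had 52.3 and 37.8 CPM in MesoT-derived MLC, against 36.1 and 31.8 CPM at day 22 and 45.2 and 24.5 CPM at day 18. The 2 kinds of MLC stood in separately scaled sets, and the difference between them was not tested. Of 14 antigen presentation companions 3 rose and 0 fell, against 6.63% and 3.32% of all genes. TAPBP, which loads peptide onto class I molecules, had 213 and 262 CPM in MesoT-derived MLC, against 80.9 and 79.1 CPM at day 22 and 108 and 67.9 CPM at day 18. The count of 3 was 0 without either MesoT day 22 library and without either MesoT-derived MLC library.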

How the data were processed

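Libraries of 11 human samples were made with poly A enrichment and sequenced as paired ends, per the labels' protocols. The sources used here do not give each library's read length, facility, annotation release or strand setting. The files hold counts per Ensembl gene ID as deposited by the authors. The build hg19 and, among the tools, Bowtie2 2.2.9, TopHat2 2.0.13, featureCounts and Subread 1.4.2 are listed in the submitters' processing notes, without roles. The 4 mouse samples and 3 chromatin samples were not analysed here.

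The 7 one-library files and the 6-library table were fitted apart in R 4.3.3 by edgeR 4.0.16. Low genes were removed by filterByExpr with the groups, libraries were scaled by TMM, and the quasi-likelihood F test was adjusted by Benjamini-Hochberg over all genes tested, with 0.05 as threshold. Each fit had 3 residual degrees of freedom. Standard errors come from the F statistic, and log2 CPM used a prior count of 2. The filter kept all 38 members in the files and 37 in the table, without OASL. For the comparison of both sets at day 18, a gene needed a mean of 10 counts in one of them. The fit was tested on simulated data. Alternatives were DESeq2 1.42.0, limma 3.58.1 voom, RLE scaling, no filter, genes counted alike, summed IDs, the compared groups only, either MesoT day alone for MesoT-derived MLC, a replicate block and leaving out each replicate. Figures were drawn with matplotlib 3.10.9.

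Named are up to 6 called members per direction and comparison by size, 17 members always, up to 4 called genes per companion list by smallest p, and any member flagged or with 0 counts throughout a group and at least 10 in every library of another. Other members given with levels, and the role groups, were chosen after their values were seen. The members and lists were chosen with earlier results of these data known. Of the gene IDs, 52181 of 63677 and 46802 of 56299 had a symbol in the reference. Some companion genes that the naming rule selects are not reported here.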

Additional observations from a re-analysis of the deposited data

How the results depend on the processing

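Counts of calls moved by more than 1.5 times as follows, and the cause was not tested. In MLC against MesoT day 18, 5667 genes became 997 among genes counted alike, and 3 members became 6 with no filter, 5 with DESeq2 and 6 in a fit of the compared groups only. Leaving out single libraries gave 1714 to 6601 genes and 0 to 6 members. In MesoT FCS against MesoT day 18, 6301 genes became 3253 in a fit of the compared groups only, and 7 members became 14 with no filter, 14 with DESeq2 and 4 in the compared groups only. Single libraries left out gave 2783 to 7845 genes and 7 to 12 members. In MLC against MesoT FCS, 11272 genes became 6146 among genes counted alike, and single libraries left out gave 4966 to 8507 genes and 4 to 13 members. In smooth muscle against MesoT day 18, 1998 genes became 4925 with DESeq2 and 0 in the compared groups only, and 4 members became 13 with no filter, 16 with DESeq2, 2 with limma voom and 0 in the compared groups only. Single libraries left out gave 2339 to 4293 genes and 3 to 10 members. In MesoT-derived MLC against MesoT, 2220 genes became 4604 with DESeq2, 1102 among genes counted alike, 380 against day 18 alone and 612 against day 22 alone. The 2 members became 1 with no filter, 4 with DESeq2, and 0 among genes counted alike, against day 18 alone and against day 22 alone. Single libraries left out gave 0 to 2996 genes and 0 to 3 members. MesoT day 22 against day 18 had 0 calls under every setting run. At an unadjusted p under 0.05 there were 204 genes by DESeq2 and 133 by limma voom.

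The replicate numbers of the labels pair only 2 samples a group. With them as a replicate block, 4718, 5863 and 10614 genes and 3, 8 and 8 members were called in the comparisons of the one-library files, in the order above, 0 and 0 in day 22 against day 18, and 2800 and 2 in MesoT-derived MLC. With the block, the adjusted p was 0.0507 for ISG15 in MLC against MesoT day 18, 0.0638 for IFI35 in MesoT FCS against MesoT day 18, and 0.0615 for IFI35, 0.0618 for RSAD2 and 0.0627 for STAT2 in MLC against MesoT FCS. In the files, the replicate differences correlated across genes at 0.07 for MesoT day 18 with MesoT FCS, 0.07 for MesoT day 18 with MLC and 0.01 for MesoT FCS with MLC. In the table, those of MesoT day 18 and day 22 correlated at 0.56 over all genes and 0.13 over the members. With MesoT-derived MLC the values over all genes were -0.008 for day 18 and -0.06 for day 22. The main test of day 22 against day 18 did not pair same-numbered libraries. The block was not run for smooth muscle, which has 1 library.

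Fold changes of single members were recomputed for called members and for ISG15, IFIT1, MX1 and OAS1, and not for other members. Of these, the following uncalled values reversed, in log2 fold change. In MLC against MesoT day 18 without MesoT day 18 replicate 2, IFIT1 was 0.27, MX1 0.070 and OAS1 0.0029, against lows of -1.22, -1.42 and -1.93 with another library left out. In MesoT FCS against MesoT day 18, MX1 was 0.49 without MesoT day 18 replicate 2 and 0.35 without MesoT FCS replicate 1, with a low of -2.81. In MLC against MesoT FCS, MX1 was 0.39 by limma voom, 0.28 with the replicate block and 1.88 without MesoT FCS replicate 2, with a low of -1.28. In MesoT-derived MLC, MX1 was -0.011 among genes counted alike, -0.15 without MesoT day 18 replicate 1, -0.047 without day 22 replicate 2, -0.54 without MesoT-derived MLC replicate 1 and -0.54 against day 22 alone, and IFIT1 was 0.075 without day 18 replicate 2, 0.11 without MesoT-derived MLC replicate 2 and 0.043 against day 18 alone. Without other single libraries MX1 there reached 0.59 and IFIT1 -1.19. OASL, with 1 count in MLC, and RSAD2, with 4 counts in MesoT FCS, rest on few counts there.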

Other observations

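Some companion genes called in these comparisons were not described above. EPSTI1, an interferon-induced gene, had 30.0 and 28.6 CPM in MLC, against 4.51 and 7.42 CPM in MesoT FCS (log2 fold change 2.30 ± 0.53, SE, edgeR adjusted p = 0.0152). CMPK2, a mitochondrial nucleotide kinase, had 3.55 and 2.86 CPM in MLC, against 0.089 and 0.614 CPM in MesoT FCS (3.23 ± 0.76, edgeR adjusted p = 0.0165). TLR3, an endosomal sensor of viral RNA, had 13.8 and 13.4 CPM in MLC, against 0.402 and 1.00 CPM in MesoT FCS (4.29 ± 0.68, edgeR adjusted p = 0.00438). In each of these 3 genes the groups did not overlap. In the table, DHX58, a relative of DDX58, had 7.10 and 6.33 CPM in MesoT-derived MLC, against 2.13 and 2.07 CPM at MesoT day 22 and 1.03 and 1.94 CPM at day 18 (1.92 ± 0.30, edgeR adjusted p = 0.0236). LGALS3BP, a secreted glycoprotein, had 488 and 502 CPM in MesoT-derived MLC, against 155 and 189 CPM at day 22 and 214 and 157 CPM at day 18 (1.47 ± 0.20, edgeR adjusted p = 0.0187).

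Across 37 members of the table, the replicate difference in MesoT-derived MLC and that in MesoT day 18 had a Pearson correlation of -0.74, given as a description since the genes share libraries and depth. Over all 22316 genes it was -0.008. Between MesoT FCS and MesoT day 18 of the one-library files it was 0.40 over 38 members and 0.07 over 23049 genes. The sign of each value turns on which library of a group is numbered 1. The labels do not link these numbers between groups, so no link between the groups can be read from these values.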
